A study of Python bivittatus with 8 samples.

Results

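Left ventricle RNA of Burmese pythons (Python bivittatus), taken 6 days after a meal (6DPF, days post-fed), was compared with that of fasted pythons, to see how far gene expression had come back to its level before the meal. The libraries were chosen by their labels: 2 of 6DPF ventricle and 2 of fasted ventricle, 4 of the 8 libraries of the series. All snakes had gone without food for 28 days. The fed groups were then given rodents amounting to 25% of body mass, and the series also holds 2 libraries each from 1 and 4 days after it (1DPF and 4DPF). All libraries are labelled wild type and were made from polyA RNA of ventricle tissue. The snakes were captive-bred and weighed about 2 kg. The labels' protocol counts 6 snakes for the sequencing and proteomics work, which is below the number of libraries, so that some libraries may share a snake. Every n of 2 below therefore counts libraries, and the p-values measure the spread between libraries, which may be in part technical.

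A large meal sets off rapid and reversible growth of the python heart together with other organs, as blood flow and oxygen use rise during digestion. The muscle cells of the ventricle enlarge and later shrink again. Return of muscle mass in vertebrates is known to draw on protein breakdown through the ubiquitin-proteasome and autophagy pathways, which FOXO transcription factors help to control. The series places 1DPF in active growth, 4DPF in early regression and 6DPF in later regression, so that 6DPF against fasted asks how complete the return was.

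Genes in the deposited table carry a number and no name. None was given a name here, so the genes are described by number, level, length and course, and neither the tissue nor the makeup of cell types could be checked against markers. Bulk tissue also cannot tell fewer cells of a type from less RNA per cell. Libraries held 42250755 and 38942637 reads at 6DPF, against 33203808 and 36500222 in fasted ventricle. Across all 8 libraries the totals ran from 33203808 to 42250755. By these plain totals 1 read is worth between 0.0237 and 0.0301 CPM (counts scaled to a common library total). Of 21368 genes, 16986 had enough reads to be tested. The 4382 others stayed at or below 1.63 CPM by plain totals in the 6DPF and fasted libraries, and 1894 of them had no read there.

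By 2 of 3 measures, 6DPF and fasted libraries differed from each other more than the libraries within either of these 2 groups. The root mean square difference in log2 CPM over the tested genes was 0.65 between 6DPF replicate 1 and fasted replicate 1, and 0.72 between 6DPF replicate 1 and fasted replicate 2. It was 0.70 and 0.74 between 6DPF replicate 2 and fasted replicates 1 and 2. Within groups it was 0.56 between the 6DPF libraries and 0.49 between the fasted libraries. Counted by gene, between 8.84% and 11.7% of genes lay over 2-fold apart in a pair of 1 library from each group, against 7.40% between the 6DPF libraries and 5.05% between the fasted ones. On these measures every pair across the 2 groups was further apart than the pair within either of them. The replicate pairs of the other groups lay wider, at 0.65 and 9.54% for 1DPF and 0.64 and 8.95% for 4DPF. By percent of genes, both were above the closest pair of 6DPF with fasted. The median absolute log2 difference did not separate them fully: it was 0.26 between 6DPF replicate 1 and fasted replicate 1 and also 0.26 between the 6DPF libraries, while the other pairs across the groups lay between 0.29 and 0.34 and the fasted pair at 0.19.

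The fitted log2 change of 6DPF over fasted had a median of -0.01 over all tested genes. Its 25% and 75% quantiles were -0.24 and 0.26, and its 5% and 95% quantiles -0.71 and 1.08, so the scatter reached further on the higher side. A fitted change of 2-fold or more was found for 963 higher and 395 lower genes. Most of these had few reads: 992 of the 1358 were in the least abundant of 4 equal bins of genes, at a geometric mean of 2.80 CPM or less, and 46 were in the most abundant bin. At an adjusted p under 0.05 (edgeR quasi-likelihood test on all 8 libraries, Benjamini-Hochberg over all tested genes, two-sided), 62 genes were higher and 8 lower at 6DPF. That is 0.412% of the tested genes, with 0.365% higher and 0.0471% lower. Without adjustment 1469 genes were higher and 1321 lower at p under 0.05.

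**Figure D1:**
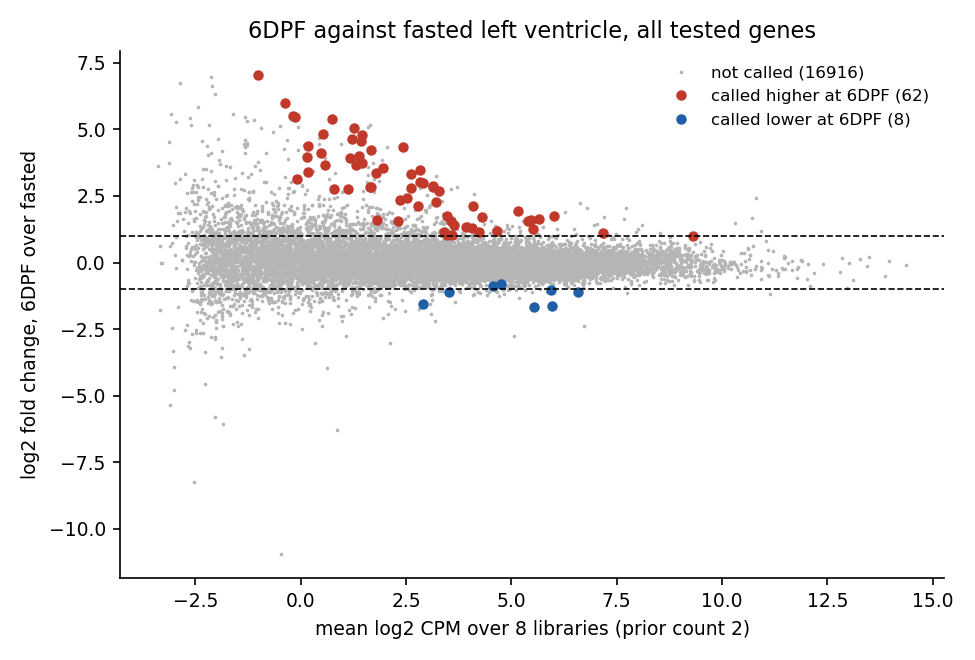
Each point is 1 of 16986 tested genes, with its mean log2 CPM over the 8 libraries on the x axis and its fitted log2 fold change of 6DPF over fasted on the y axis. Red points are the 62 genes called higher at 6DPF, blue points the 8 called lower, and dashed lines mark 2-fold. The spread widens towards low levels, and the called higher genes reach down to levels where the uncalled genes also scatter beyond 2-fold.

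A missed call does not show a return, so the 95% interval of each change was set against a bound of 2-fold in either direction. The interval lay wholly inside that bound for 10505 genes, 61.8% of those tested. These genes held 82.2% and 81.6% of the reads of tested genes in the 6DPF libraries, and 81.3% and 80.9% in the fasted libraries. By reads, most of the ventricle transcriptome was thus held within 2-fold of its fasted level. For 4956 genes (29.2%) the interval lay inside 1.5-fold. A further 6411 genes (37.7%) were neither called nor bounded within 2-fold, and in 1502 of them the interval excluded 0. The intervals are not adjusted for the number of genes.

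The share of genes that could be bounded was higher in more abundant bins. In the least abundant bin 7.44% of genes were bounded within 2-fold, with a median standard error of 0.54 on the log2 scale. The share was 63.3% in the second bin, 87.2% in the third and 89.4% in the most abundant bin, where the median standard error was 0.16. For most genes of the lowest bin (92%) these libraries therefore gave neither a call nor a bound within 2-fold. In 154 genes the whole interval lay beyond 2-fold on the higher side, against 20 genes on the lower side, and 52 and 3 of these were also called. The least abundant bin held 99 of the 154 and 12 of the 20, and the most abundant bin 7 and 3.

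**Figure D2:**
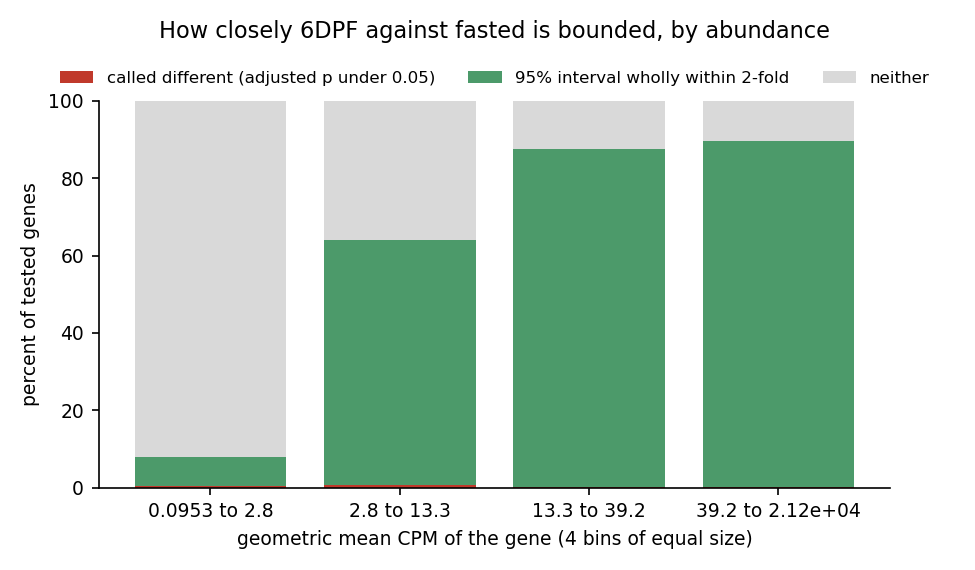
Bars give the percent of tested genes in each of 4 bins of equal size by geometric mean CPM (x axis), split into genes called different between 6DPF and fasted ventricle, genes whose 95% interval lies wholly within 2-fold, and genes that are neither. The bounded share is 7.44% in the least abundant bin and 89.4% in the most abundant, while called genes are a thin strip of 0.212% to 0.659% in every bin.

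Most of the abundant transcripts could be bounded within 2-fold of their fasted level. Levels of different genes were compared as CPM per kilobase of gene length. The 50 highest genes on this scale held 18.8% and 20.8% of the tested reads in the 6DPF libraries, against 21.03% and 21.44% in fasted ventricle. None of the 50 was called (percent called over all genes 0.412%), although 2 were lower at an unadjusted p under 0.05. In 41 of them (82%) the interval stayed within 2-fold, and the median log2 change was -0.14, against -0.01 over all tested genes. Replicate 1 was above replicate 2 in 5 of the 50 at 6DPF and in 21 of the 50 in fasted ventricle, against 49.7% and 50.3% of all tested genes, and the part of that difference in these values was not tested. The single most abundant gene, 1476 bases long, had 12994 and 17915 CPM at 6DPF, against 16112 and 27679 CPM in fasted ventricle. These libraries overlap, and the log2 change of -0.50 (95% interval -1.26 to 0.25) did not pass the test. The furthest of the 50 from its fasted level, 1255 bases long, had 5135 and 7250 CPM at 6DPF and 9884 and 14110.5 CPM in fasted ventricle. Its libraries did not overlap, but the log2 change of -0.95 (SE 0.29, edgeR adjusted p = 0.169) did not pass.

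Among the genes that rose, 41 did so at least 4-fold and 27 at least 8-fold. None of the 62 was under 2-fold, and in every one both 6DPF libraries were above both fasted ones, which also held for 24.1% of all tested genes. For 58 of them the lower 6DPF library was at least 2 times the higher fasted one. The ratio of the lower 6DPF library to the higher fasted one had a median of 5.33 and was 1.82 at the least. These ratios come from the libraries that made the calls, so they describe the 62 genes and add no support to the calls. The genes were mostly scarce in fasted ventricle: their median was 7.35 and 5.35 CPM per kilobase in the 6DPF libraries, against 0.836 and 0.642 in the fasted libraries, where the median of all tested genes was 5.03 and 5.01. In 4 of the 62 a fasted library held 3 reads or fewer, so the size of their fold rests on those few reads.

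Together the 62 genes made up 0.237% and 0.205% of the tested reads at 6DPF, against 0.0698% and 0.0663% in fasted ventricle. The 8 genes that fell made up 0.0294% and 0.0270% at 6DPF, against 0.0588% and 0.0688% in fasted ventricle. The called differences thus concerned a small part of the RNA of the ventricle. When counts were scaled by plain library totals in place of trimmed mean (TMM) factors, 27 genes were called, and all 27 were higher (88.6% with TMM factors). That scaling moved the median log2 change of all genes to 0.05.

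By the rule for named genes, restricted to a mean log2 CPM of 3 or more, the largest rises were those of genes 103058332 and 103057364. Gene 103058332, which is 1961 bases long, had 34.5 and 25.9 CPM at 6DPF, against 4.39 and 3.81 CPM in fasted ventricle. The lower 6DPF library was 5.90 times the higher fasted one. The mean was 30.2 ± 6.10 CPM at 6DPF and 4.10 ± 0.409 CPM in fasted ventricle (SD, n = 2 each), and the log2 change was 2.88 (SE 0.27, adjusted p = 0.0317 in edgeR). At 1DPF it stood at 3.89 and 3.42 CPM, close to fasted, and at 4DPF at 16.7 and 10.3 CPM. The step from 1DPF to 4DPF, which uses neither the 6DPF nor the fasted libraries, was a rise of 1.88 on the log2 scale (SE 0.27, adjusted p = 0.0173 in edgeR).

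Gene 103057364, with 2849 bases, followed nearly the same course. It had 31.5 and 26.0 CPM at 6DPF, against 3.47 and 4.64 CPM in fasted ventricle. Its mean was 28.7 ± 3.91 CPM at 6DPF and 4.05 ± 0.828 CPM in fasted ventricle (SD, n = 2 each), and the log2 change was 2.82 (SE 0.28, adjusted p = 0.0317 in edgeR). It had 3.61 and 2.89 CPM at 1DPF and 19.5 and 12.003 CPM at 4DPF. Between 1DPF and 4DPF the log2 change was 2.28 (SE 0.28, edgeR adjusted p = 0.0143). In both genes replicate 1 was above replicate 2 at 4DPF and at 6DPF.

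The largest falls were those of genes 103057573 and 103064799. Gene 103057573, which is 7463 bases long, had 43.9 and 35.4 CPM at 6DPF, against 110 and 144 CPM in fasted ventricle. The mean was 39.7 ± 5.98 CPM at 6DPF and 127 ± 24.3 CPM in fasted ventricle (SD, n = 2 each), and the log2 change was -1.68 (SE 0.22, adjusted p = 0.0385 in edgeR). It was lowest at 1DPF, with 20.7 and 22.4 CPM, and had 36.6 and 53.2 CPM at 4DPF. From 1DPF to 4DPF it rose by 1.06 on the log2 scale (SE 0.22, edgeR adjusted p = 0.0362), while 6DPF and 4DPF libraries overlapped.

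Gene 103064799 took another course to a similar level. It is 5650 bases long and had 31.6 and 36.9 CPM at 6DPF, against 96.0 and 114 CPM in fasted ventricle. The mean was 34.3 ± 3.78 CPM at 6DPF and 105 ± 12.6 CPM in fasted ventricle (SD, n = 2 each), and the log2 change was -1.61 (SE 0.21, adjusted p = 0.0385 in edgeR). At 1DPF it had 121 and 87.5 CPM, which spans the fasted values, and at 4DPF 45.3 and 34.5 CPM. The fall was thus seen after 1DPF, and the log2 change between 1DPF and 4DPF was -1.39 (SE 0.21, adjusted p = 0.0198 in edgeR).

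**Figure D3:**
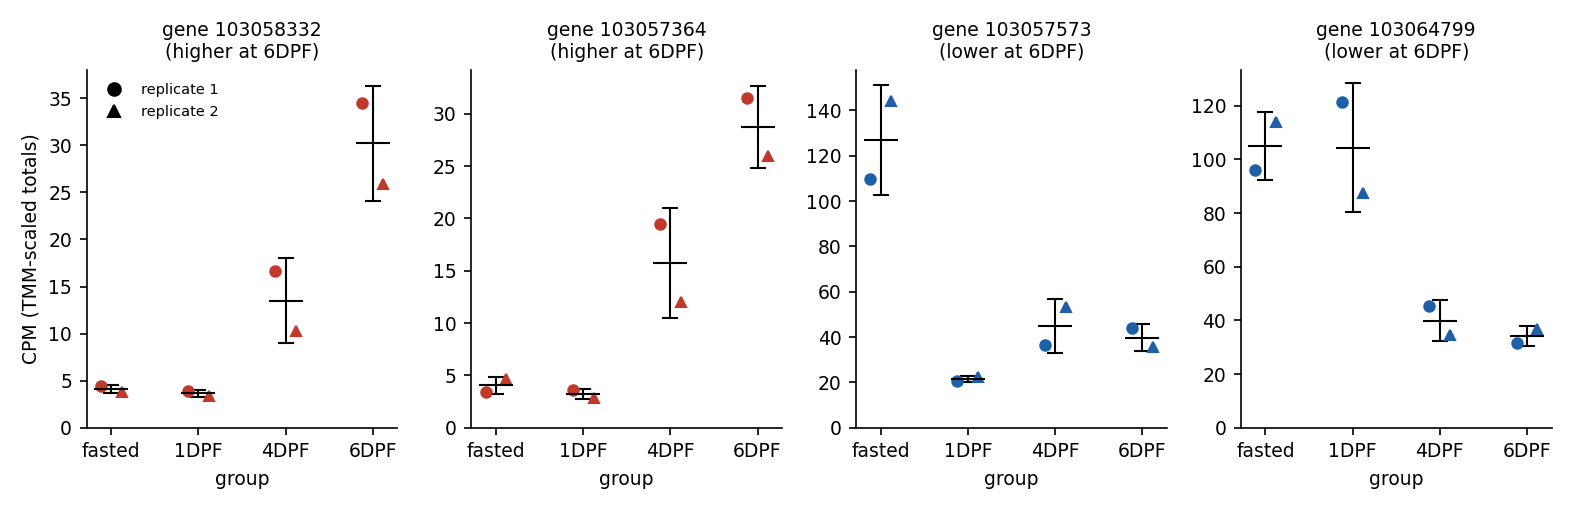
Each panel shows 1 gene, with CPM (scaled by TMM factors) on the y axis from 0 and the 4 groups on the x axis in order of time. Circles are replicate 1, triangles replicate 2, and black bars the mean with its SD (n = 2). Genes 103058332 and 103057364 are near fasted at 1DPF and highest at 6DPF, gene 103057573 is lowest at 1DPF and only partly back at 6DPF, and gene 103064799 is near fasted at 1DPF and low at 4DPF and 6DPF.

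The 62 higher genes had not all behaved alike at 1DPF. The comparisons of 1DPF, 4DPF and 6DPF with fasted use the same fasted libraries, so their values are given side by side as a description. The median log2 difference of the 62 from fasted was -0.14 for 1DPF, 1.95 for the 4DPF group and 2.83 for 6DPF. All 62 had fitted values above fasted at 4DPF, against 8488 of the 16986 tested genes. In 38 of the 62 the fitted 1DPF level was within 2-fold of fasted. These had medians of 3.21 and 2.54 CPM in fasted ventricle, 3.98 and 3.37 at 1DPF, 14.8 and 9.86 by 4DPF, then 19.4 and 18.5 at 6DPF. For these genes the median thus lay near fasted at 1DPF and above it at both later times. The 62 were chosen by their 6DPF libraries, which also enter the test between 6DPF and 4DPF, so the choice favours a rise there. Among the 38, the genes of 5026 and 1828 bases passed that test, which 0.0883% of all tested genes passed. Their log2 changes from 4DPF were 1.48 and 1.23 (edgeR adjusted p = 0.0312 and 0.0496). Both lay near fasted at 4DPF, with log2 differences of 0.089 and 0.092 (edgeR adjusted p = 0.720 and 0.707).

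In 13 of the 62 the fitted 1DPF level was 2-fold or more below fasted. Not all of the 13 passed the test of 1DPF against fasted (edgeR adjusted p from 0.0267 to 0.279). Their medians were 1.17 and 0.690 CPM in fasted ventricle, 0.309 and 0.203 at 1DPF, 8.92 and 4.57 by 4DPF, then 20.3 and 12.4 at 6DPF. Their medians lay below fasted at 1DPF and above it later. Each of the 13 was higher at 6DPF than at 4DPF by its fitted value, as were 54 of all 62. None of the 13 passed that test (lowest edgeR adjusted p = 0.14), and the choice by 6DPF values favours this direction. In the other 11 the fitted 1DPF level was 2-fold or more above fasted (edgeR adjusted p from 0.00044 to 0.0803). Their medians were 3.59 and 2.76 CPM in fasted ventricle, 7.31 and 8.26 at 1DPF, 11.95 and 11.73 by 4DPF, then 15.6 and 15.4 at 6DPF. By the fitted value 6 of the 11 were higher at 6DPF than at 4DPF and the other 5 lower, and 1 of the 5 passed the test between 6DPF and 4DPF, in a comparison that called 0.0883% of the tested genes.

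Genes that had come most of the way down without reaching the fasted level were among those 11. The gene furthest above fasted at 1DPF, 1867 bases long, had 440 and 417 CPM at 1DPF and 262.5 and 249 CPM at 4DPF. At 6DPF it was at 100.4 and 82.2 CPM, against 43.3 and 41.7 CPM in fasted ventricle, which is 1.10 higher on the log2 scale (SE 0.14, adjusted p = 0.0356 in edgeR). The most abundant of the 62 by CPM per kilobase, 2068 bases long, had 1411 and 1378 CPM at 1DPF and 701 and 762 CPM at 4DPF. It was at 523 and 611 CPM at 6DPF, against 285 and 281 CPM in fasted ventricle (log2 change 1.00, SE 0.15, edgeR adjusted p = 0.0466). In both genes every later library was below every 1DPF library and above every fasted one. They were picked out here after their values were seen.

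The 62 genes mostly shared an order of the replicates. Replicate 1 was above replicate 2 in 51 of the 62 (82.3%) at 6DPF and in 50 (80.6%) at 4DPF, against 49.7% and 50.4% of all tested genes. It was so in 49 (79.0%) at 1DPF, against 47.1% of all tested genes, and in 44 (71.0%) in fasted ventricle, against 50.3%. The order was thus the more frequent one among the 62 in all 4 groups. The median ratio of replicate 1 to replicate 2 was 1.32 at 6DPF and 1.68 at 4DPF. For the 41 genes with a rise of at least 4-fold it was 1.41 at 6DPF and 1.98 at 4DPF, and for the 21 with a smaller rise 1.02 and 0.945. The labels do not say whether a replicate number links libraries of different groups, and with the replicate number as a block in the fit of all 8 libraries 92 genes were called higher and 12 lower, with 54 of the 62 among them.

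**Figure D4:**
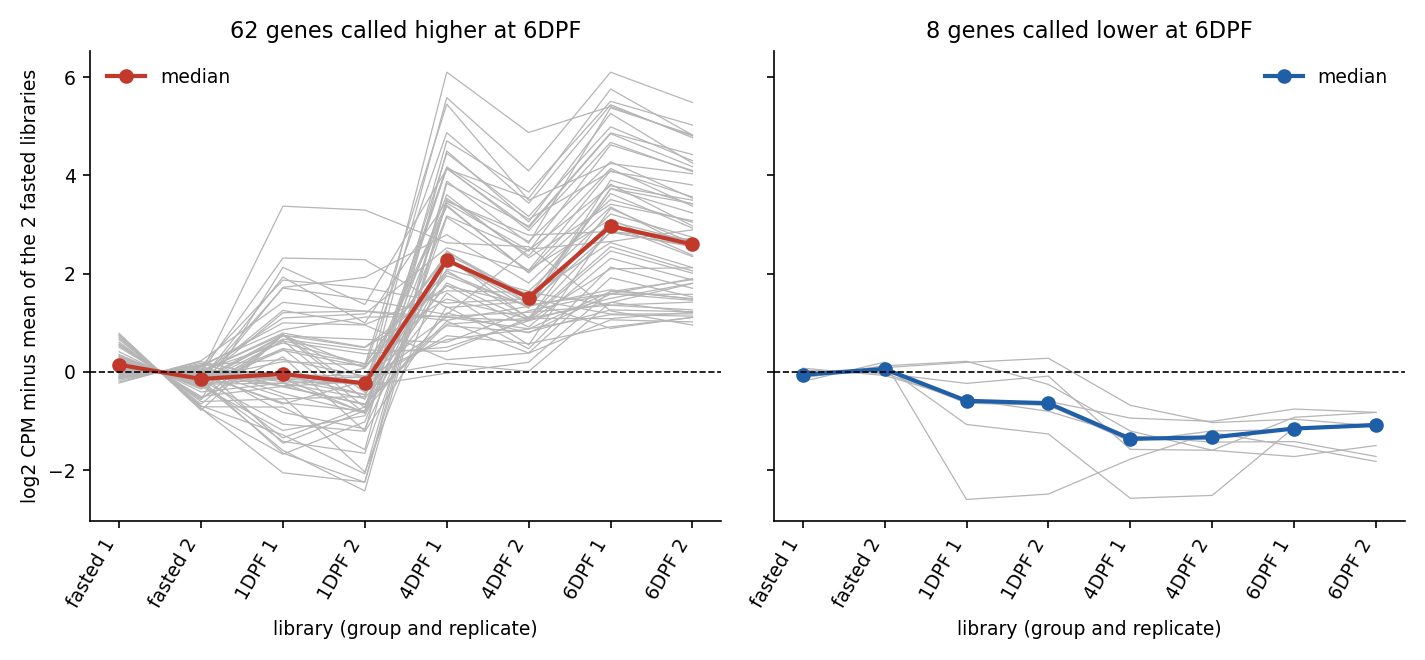
Log2 CPM of each called gene minus the mean of its 2 fasted libraries (y axis) is drawn for the 8 libraries in order of time (x axis), for the 62 genes called higher at 6DPF on the left and the 8 called lower on the right. Grey lines join the values of 1 gene and the coloured line joins the medians. On the left the median is 2.27 and 1.51 at 4DPF and 2.97 and 2.60 at 6DPF, with replicate 1 above replicate 2 at both times. On the right the 4DPF and 6DPF values of all 8 genes lie below 0.

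A smaller set of the higher genes ran against that replicate order. In 8 of the 62 replicate 2 was above replicate 1 at both 4DPF and 6DPF. Among them were 3 genes in directly consecutive rows of the deposited table, with lengths of 1054, 1077 and 1246 bases. In row order they had 85.8 and 106, 70.3 and 92.1, and 109 and 135 CPM at 6DPF, against 35.7 and 25.9, 29.2 and 23.9, and 42.1 and 31.0 CPM in fasted ventricle. Their log2 changes were 1.64, 1.61 and 1.74 (edgeR adjusted p = 0.0464, 0.0499 and 0.0448). In each of the 8 libraries the gene of 1246 bases was the highest of the 3 by CPM and that of 1077 bases the lowest. What the order of rows stands for is not given in the sources used here, and reads shared between near-identical copies could also tie such counts together, which was not tested. No other called genes stood in adjacent rows.

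The 8 lower genes were longer than most. Their median length was 6011 bases, against 2196 for the 62 higher genes and 2503 for all tested genes. Over all genes the fitted log2 change also fell with length, with a median of 0.08 in the shortest of 4 equal bins by length and -0.11 in the longest, and 6 of the 8 lower genes were in that longest bin. With each library's trend with length removed, 54 of the 62 higher genes and 6 of these 8 lower genes were still called, among 58 called higher and 8 called lower in that fit. In all 8 both 6DPF libraries were below both fasted ones, which also held for 25% of all tested genes, and the higher 6DPF library was between 0.385 and 0.603 of the lower fasted one. Their median log2 difference from fasted was -0.63 for 1DPF, -1.39 for the 4DPF group and -1.11 for 6DPF. Of the 8, 4 were above and 4 below their 4DPF level at 6DPF by the fitted value.

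The most abundant of the 8 by CPM per kilobase, 8209 bases long, was the one with the clearest movement back. It had 203 and 239 CPM in fasted ventricle, 105 and 91.5 at 1DPF, 36.9 and 38.4 by 4DPF, then 100.4 and 105 at 6DPF. It was the only gene among the 8 called between 6DPF and 4DPF, with a log2 change of 1.45 (edgeR adjusted p = 0.0312). It remained below fasted by 1.10 on the log2 scale (SE 0.14, edgeR adjusted p = 0.0337).

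Genes that had moved between 1DPF and 4DPF were then followed, because that choice uses none of the 6DPF or fasted libraries. The choice and the measure still share the estimate of dispersion, and a gene with a low estimate passes both tests more easily. Replicate differences also correlated across genes at 0.43 between 4DPF and 6DPF, and what this adds was not tested. At 4DPF 673 genes were higher and 373 lower than at 1DPF (3.96% and 2.2% of the tested genes, 6.16% in all). Most of the 373 genes that fell were bounded within 2-fold of their fasted level at 6DPF, on the lower side of it more often than on the higher. Their medians per library were 40.1 and 44.8 CPM at 1DPF, 24.6 and 24.5 CPM at 4DPF, and 22.5 and 21.2 CPM at 6DPF. In fasted ventricle they were 25.2 and 24.9 CPM. The medians thus already lay near fasted at 4DPF, whose libraries took part in the choice, and below it at 6DPF. The median log2 change of 6DPF over fasted was -0.20, with 276 of the 373 fitted changes negative and 97 positive. Over all 16986 tested genes 8601 were negative and 8383 positive. At an unadjusted p under 0.05, 112 of the 373 were lower and 13 higher, against 1321 and 1469 of all tested genes. Of the 373, 300 (80.4%) were bounded within 2-fold, against 61.8% of all tested genes. Their median standard error was 0.15, against 0.22 over all tested genes, so a bound was easier to reach. In the 2 most abundant bins of tested genes, with a median standard error of 0.16 each, 87.2% and 89.4% were bounded. Chosen anew with a library left out, the genes that fell had medians of -0.45 (8 genes, without 1DPF replicate 2), -0.72 (6 genes, without 4DPF replicate 1) and -0.12 (44 genes, without 4DPF replicate 2). With the 373 genes held fixed the median stayed between -0.23 and -0.14 in all alternatives. Of the 373, 3 were called higher and 5 lower at 6DPF, which is 2.14% against a background of 0.412%.

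The 673 genes that rose from 1DPF to 4DPF lay more often above fasted. Their medians were 9.81 and 8.97 CPM at 1DPF, 22.8 and 20.4 CPM at 4DPF, and 24.1 and 23.6 CPM at 6DPF. In fasted ventricle they were 20.3 and 19.4 CPM. The medians thus already lay above fasted at 4DPF, whose libraries took part in the choice. For 4DPF replicate 2 against fasted replicate 1 this was barely so (20.4 against 20.3 CPM). The median log2 change of 6DPF over fasted was 0.32, and 526 of the 673 fitted changes were positive, against 8383 of all 16986 tested genes. At least a 2-fold higher level at 6DPF was fitted for 138 of the 673 and at least a 2-fold lower level for 4. Over all tested genes these counts were 963 and 395. Of the 673, 39 were called higher at 6DPF than fasted (5.79%, against 0.365% of all tested genes) and 1 lower. The 39 are 62.9% of the 62 higher genes and 5.79% of the 673. With the 673 genes held fixed, those called higher were 15 with plain library totals, against 27 of all tested genes. With DESeq2 they were 175 against 506 of all tested genes, and with limma voom 0 against 0. With no filter on low counts they were 69 against 111. In the 4 compared libraries alone they were 85 against 163. The replicate number as a block gave 62 against 92 in all 8 libraries, and 129 against 390 in those 4. The count over all tested genes thus moved too. Leaving out 1DPF replicate 2, or either replicate of 4DPF, also moved the count. Leaving out either library of 6DPF or fasted gave 0. The median change of the 673 stayed between 0.27 and 0.40 in all alternatives. For genes chosen anew it was 0.51 without fasted replicate 1 (258 genes), 0.014 without 1DPF replicate 2 (7 genes) and 0.69 without 4DPF replicate 2 (293 genes).

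**Figure D5:**
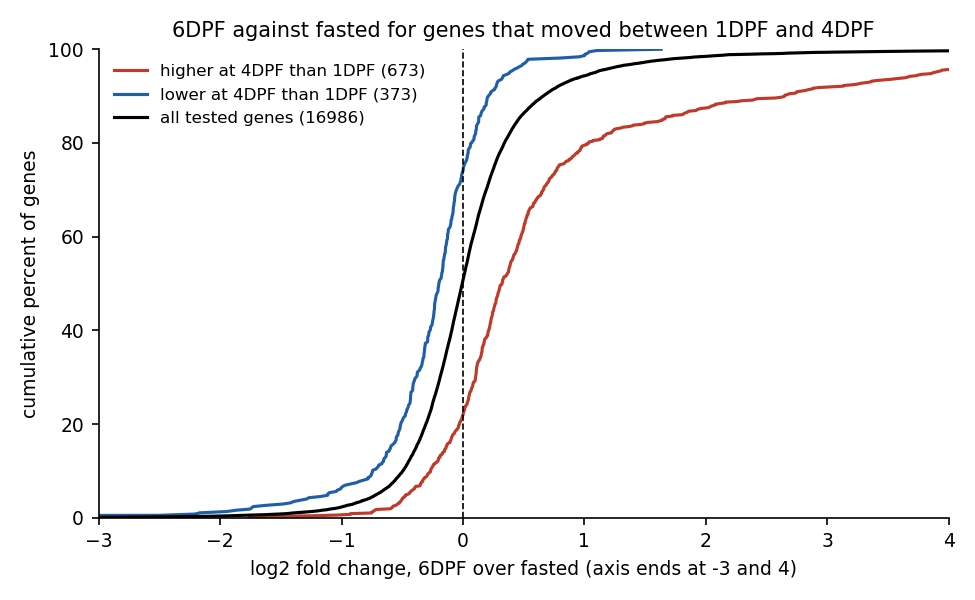
The cumulative percent of genes (y axis) is plotted against the log2 fold change of 6DPF over fasted (x axis) for the 673 genes higher at 4DPF than 1DPF, the 373 lower at 4DPF than 1DPF, and all 16986 tested genes. The curve of the 373 lies left of all genes, with a median of -0.20, and that of the 673 lies right, with a median of 0.32 and a long upper tail.

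No read in either fasted library, but a read in both 6DPF libraries, was found for 150 genes, and the reverse for 64. Both 6DPF libraries were deeper than both fasted ones, and the part of depth in this was not tested. Few of these genes had at least 10 reads in both libraries of the other group. With no read in either fasted library, 2 genes had at least 10 reads in both 6DPF libraries. One, 798 bases long, had 22 and 12 reads at 6DPF and 69 and 12 at 4DPF, and was not called (edgeR adjusted p = 0.139). The other had 10 and 15 reads at 6DPF and too few overall to be tested. In the opposite direction 2 genes had no read at 6DPF and at least 10 in both fasted libraries. One of them, 1427 bases long, had 390 and 29 reads in fasted ventricle, 393 and 402 at 1DPF, and 7 and 2 at 4DPF. Its fasted libraries lay far from each other, and it was not called (edgeR adjusted p = 0.093). The other, 104 bases long, had 52 and 13 reads in fasted ventricle and was not called (edgeR adjusted p = 0.0845). Taken singly, a library with a count of 0 allows an expected count of up to 3 reads, by counting error alone.

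The calls rest on all 4 of the compared libraries. Without 6DPF replicate 1 or 2, or fasted replicate 1 or 2, edgeR called 0 genes, while the unadjusted p was under 0.05 in 2707, 2088, 2128 and 1452. In each of these fits the lone library of a group was assumed to vary like the other groups. The median log2 change of the 62 was 2.64, 2.96, 3.0001 and 2.70 in these 4 fits, and that of the 8 between -1.18 and -1.02. Their signs could not turn there, since the 6DPF and fasted libraries do not overlap in any of the 70 genes. Genes 103058332, 103057364, 103057573 and 103064799 also missed the threshold in these fits, with edgeR adjusted p-values of up to 0.299, 0.281, 0.326 and 0.352. The count of calls was 46 when 1DPF replicate 1 was left out, 41 when 1DPF replicate 2 was, and 118 when 4DPF replicate 2 was. Limma voom also called 0 (2746 at an unadjusted p under 0.05), while DESeq2 called 506 higher and 299 lower genes, with all 70 among them.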

How the data were processed

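Per the labels, polyA RNA of left ventricle was sequenced as paired-end reads in 8 libraries. The deposited table holds the authors' raw read counts per numbered gene and a gene length. The submitters' processing notes name DESeq2 1.36.0, featureCounts, SAMtools 1.8, HISAT2 2.1.0 and Trimmomatic 0.36. Genome build, annotation, strandedness and the treatment of multiply mapped reads: not given in the sources used here, so counts of overlapping, antisense or near-identical genes are uncertain. Gene lengths in the file are other deposited values, used as given. Columns were matched to samples through the description labels.

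Genes passing filterByExpr (minimum count 10, minimum total 15) were scaled with TMM factors and fitted in edgeR 4.0.16 (R 4.3.3; glmQLFit, glmQLFTest) with group as the only term and all 8 libraries, which leaves 4 residual degrees of freedom. Standard errors came from the fold change and its F statistic, and 95% intervals from the t distribution of the fit. For 2 genes no standard error could be had, and they count as not bounded. CPM values use the TMM-scaled totals, except the worth of 1 read and the highest level of the untested genes, which use plain totals. Log2 CPM has a prior count of 2. The fit was tested on simulated data. Alternatives used DESeq2 1.42.0 and limma 3.58.1. The rule for named genes took, per direction, the 2 called genes with the largest change at a mean log2 CPM of at least 3. The 47 planned gene lists could not be matched to numbers and were not analysed here. The genes followed and the comparisons were chosen with earlier results of these data known.

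Replicates are libraries numbered 1 and 2 in each group. Replicate differences correlated across genes at 0.05 for 6DPF with fasted, 0.43 for 6DPF with 4DPF and -0.34 for 4DPF with 1DPF, with the other 3 pairs of groups between -0.20 and 0.09. The labels do not say that a number links groups, so the fit has no block, and one was run as an alternative. The 2 libraries of every group were further apart than sampling noise allows (the lowest chi-square was 50.8 per degree of freedom), and none was merged. With 2 libraries a side, a permutation of samples cannot reach the threshold, and none was run.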

Additional observations from a re-analysis of the deposited data

How the results depend on the processing

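The 70 calls between 6DPF and fasted ventricle became 27 with plain library totals, 135 without a filter on low counts, 805 with DESeq2 and 0 with limma voom (2746 genes at an unadjusted p under 0.05). A fit of the 4 libraries of 6DPF and fasted alone called 191. With a library left out the count ran from 0 to 118: it was 0 when any 1 of the 4 compared libraries was missing, 46 and 41 when 1DPF replicate 1 or 2 was, and 104 and 118 when 4DPF replicate 1 or 2 was. A replicate block gave 104 calls in the fit of all 8 libraries and 491 in that of the 4 alone. The count was 68 under RLE factors, 76 with genes averaging 1 CPM or more, and 66 once the trend with length was removed, a step chosen after seeing the data. DESeq2 had a smaller share of higher genes among its calls, 62.9% against 88.6%. The count bounded within 2-fold stayed between 10307 and 11004 in every alternative that kept the 4 compared libraries. The number of tested genes also changed there. The share bounded thus ran from 53.7% (no filter on low counts) to 71% (genes averaging 1 CPM or more), against 61.8%. Without any 1 of the 4 compared libraries the count bounded was lower.

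The median change of the genes that rose from 1DPF to 4DPF, chosen anew in each fit, was 0.41 with plain library totals, 0.29 with DESeq2, 0.29 with limma voom, and 0.45 with the replicate block in all 8 libraries, against 0.32. It ran from 0.014 (7 genes, without 1DPF replicate 2) to 0.69 (293 genes, without 4DPF replicate 2) with a library left out. For the genes that fell it was -0.12 with plain library totals and ran from -0.72 (6 genes, without 4DPF replicate 1) to -0.12 (44 genes, without 4DPF replicate 2), against -0.20. With the 673 and 373 genes held fixed, the medians stayed between 0.27 and 0.40 and between -0.23 and -0.14 over all alternatives. The cause of these shifts was not tested.

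The changes of genes 103058332, 103057364, 103057573 and 103064799 ran over the alternatives from 2.68 to 3.07, 2.63 to 3.06, -1.86 to -1.46 and -1.73 to -1.48. None of the 4 passed with limma voom or without any 1 of the 4 compared libraries, with a highest edgeR adjusted p of 0.299, 0.281, 0.326 and 0.352. Both lower genes also missed the threshold with plain library totals (edgeR adjusted p = 0.0528 and 0.0546), and gene 103057573 without either 1DPF replicate. The low genes were bounded least often: in the least abundant bin 7.44% could be bounded within 2-fold, and the part of depth in this was not tested.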
